A study of Mus musculus with 6 samples.

Results

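Integrins are cell-surface receptors built from 1 alpha and 1 beta chain, and ICAM-1 is an immunoglobulin-family surface protein that several leukocyte integrins bind. The genes described here are 8 integrin chains and Icam1, 9 genes of the 14109 named genes tested, taken by symbol in the scanner annotation of the arrays and measured by 16 of the 55681 probes. They comprise the beta2 chain Itgb2 with the alpha chains Itgal, Itgam and Itgax, the beta1 chain Itgb1 with Itga4, Itga5 and Itgav, and Icam1. All were measured in RAW264.7, an established mouse macrophage line, grown in DMEM with serum. In 1 group the cells were treated with AEPS, a polysaccharide from roots of Actinidia eriantha, at 50 µg/ml for 4 h, and in the other they were left untreated. Each group has 3 samples on 1-colour Agilent arrays. Whether the samples are separate cultures is not in the labels, and p-values therefore reflect only the spread between these samples, which may be technical. Both groups are 1 cell line without other cell types that integrins would normally meet, and RNA was taken from whole cultures, so more cells with a transcript and more transcript per cell cannot be told apart.

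In macrophages the beta2 chain pairs with alphaL (LFA-1), alphaM (Mac-1, also complement receptor 3) or alphaX (complement receptor 4). Between them, though not each one, these heterodimers bind ICAM-1, fibrinogen and complement-coated particles and serve adhesion, migration and phagocytosis. The beta1 chain pairs with alpha4, which binds VCAM-1 and fibronectin, and with alpha5, which binds fibronectin. The alphaV chain pairs with beta1 and with beta3, beta5 and other beta chains and binds vitronectin and other proteins with an RGD motif. ICAM-1 is known as a surface molecule that inflammatory signals raise on many cell types.

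Replicates 1 and 2 had the same values in their scanner files, in both groups, so scanner values rest on 2 distinct arrays per group, 1 of each group on each of 2 slides. The authors' deposited table has 3 columns per group, and its replicate 3 columns matched no scanner file. Of the non-control spots, 55.4% to 58.7% were well above background on each array. A scanner level below is log2 of the processed signal minus the log2 of that array's 75th percentile, and the number of arrays limits its precision. All 8 macrophage markers checked (among them Adgre1, Csf1r, Cd68, Lyz2 and Spi1) were above background on every array, and their summed level was 10.20 to 10.44 in controls and 10.02 to 10.18 with AEPS on this log2 scale. Of these 8, Ptprc was called higher, by 0.93, and Fcgr1 lower, at -1.49 (limma adjusted p = 0.0479 and 0.0343), and Csf1r was lower with the slide as a block, at -0.60 (limma adjusted p = 0.112 without and 0.0371 with it). Platelet and NK cell markers were above background on none (0 of 3 and 0 of 2). Of the other markers checked, 2 of 4 for T cells, 1 of 3 for B cells, 2 of 3 for dendritic cells, 2 of 4 for neutrophils, 1 of 3 for endothelial cells and 1 of 3 for fibroblasts were above background on every array.

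All 16 probes of the 9 genes were well above background on all 4 arrays and none was saturated, so every member was tested in both groups. The probe sequences that matter for the comparisons below are shown here as the scanner files give them. The first is the only Icam1 probe, the next 2 are Itgam probes at different places in the transcript that gave different results, the fourth is an Itgal probe that gave a larger change than the brightest Itgal probe, and the last is an Itgb1 probe whose 60 bases span 5896 bases of genome, so that it crosses an intron.

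Icam1 A_52_P613241: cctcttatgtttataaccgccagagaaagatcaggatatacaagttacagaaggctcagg
Itgam A_55_P1977929: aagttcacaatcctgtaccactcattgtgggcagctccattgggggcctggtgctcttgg
Itgam A_55_P1977926: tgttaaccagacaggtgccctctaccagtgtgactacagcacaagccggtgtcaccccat
Itgal A_55_P2184601: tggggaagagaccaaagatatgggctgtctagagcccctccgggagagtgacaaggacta
Itgb1 A_66_P113059: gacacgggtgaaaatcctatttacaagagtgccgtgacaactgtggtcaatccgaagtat

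Whether AEPS changed the transcripts of these adhesion receptors within 4 h was examined first gene by gene, each gene by its brightest probe. Icam1, Itgav, Itgax and Itga5 rose between 2.48-fold and 3.56-fold. Itgb1 and Itgb2 were 1.66-fold and 1.41-fold higher and did not pass in the scanner fit without a block. Both passed with the slide as a block, with spike-in scaling and in the authors' deposited table, and Itgb1 also with normexp background correction (limma adjusted p = 0.0401). Itgal, Itga4 and Itgam did not pass in the scanner fit with or without the block. By limma, with p-values adjusted by the Benjamini-Hochberg method over the 25978 features tested (genes with a name, and single probes without one), 4 of the 9 members were higher and 0 lower at an adjusted p under 0.05. Of all features, 4.18% were called higher and 2.94% lower in the same fit. At an unadjusted p under 0.05 the count of members was 6, all of them higher, as were 14.4% of all features. The median change of the 9 members was 0.73 on the log2 scale, against -0.19 over all features. The members were chosen with earlier results of these data known, so neither the counts nor this median tests them against all features. With the slide as a block 6 members were called higher, while the share of all features called higher was 13% and that called lower 16.8%. The authors' deposited table had 6 members called higher without a block, beside 17.1% of all features. With the replicate number as a block 7 were called higher in that table, beside 23.5% of all features. Without the first control array or without the second, 0 members were called, and without the first or the second AEPS array 2 and 1 were called, the lone array being assumed to vary like the other group.

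**Figure D1:**
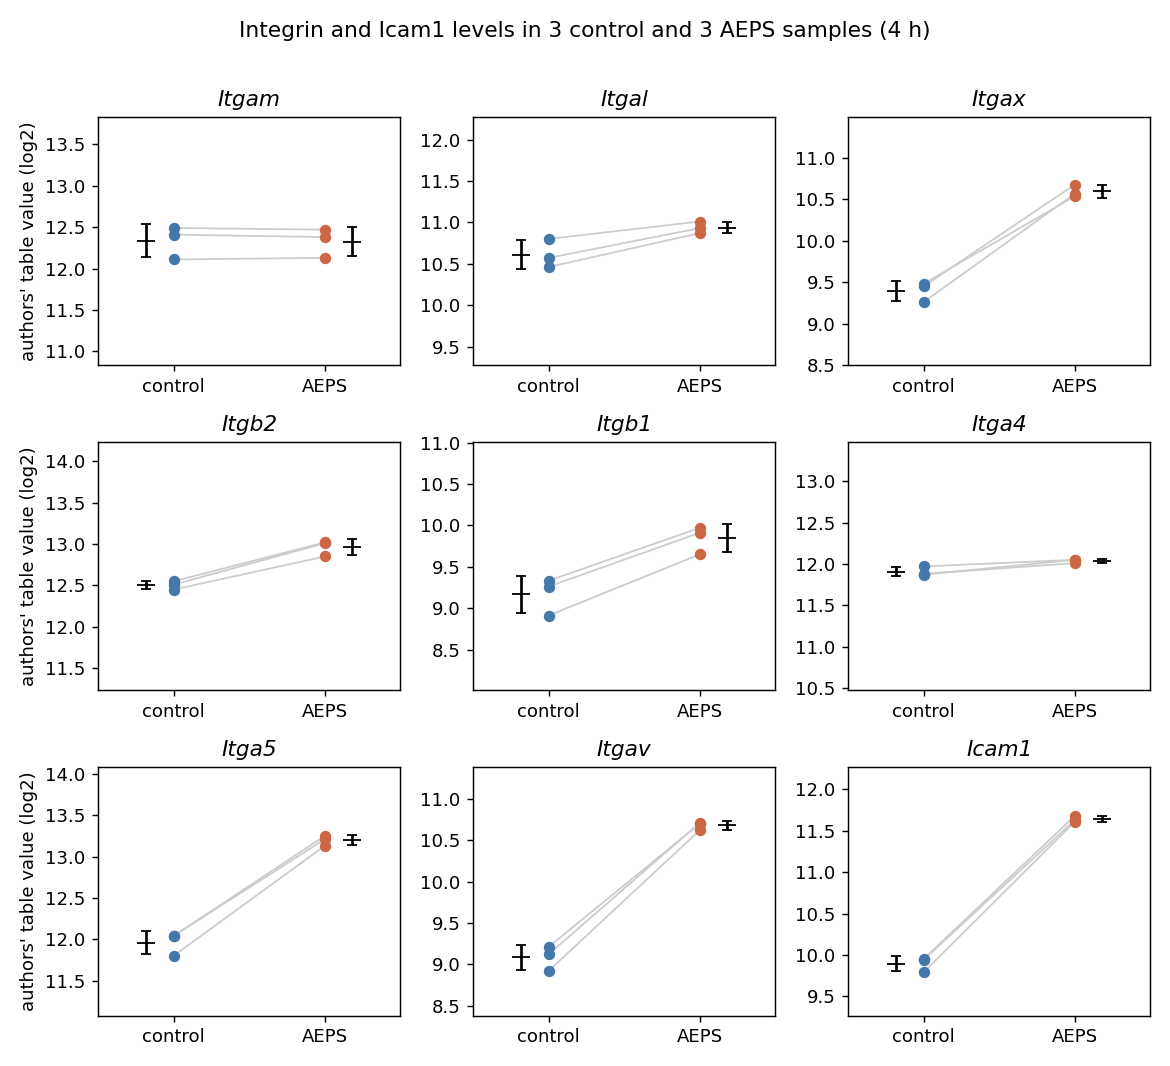
Values of the 9 genes in the authors' deposited table (vertical axis, log2 scale) in 3 control samples (blue) and 3 AEPS samples (orange), with the mean and SD of each group in black and grey lines joining samples of the same replicate number. Each panel spans 3 log2 units at its own height, since levels of different probes are not comparable. Each gene is shown by its brightest probe, and at these probes the groups overlap for Itgam alone. They did not overlap at the Itgam probe A_55_P1977929.

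ICAM-1, the counter-receptor of the beta2 integrins, had the largest change of the 9 genes. Its probe lies at chr9:20832290-20832349 (mm9, plus strand). On the scanner arrays Icam1 was at 1.34 and 1.29 in the controls and at 3.09 and 3.20 with AEPS. The control arrays lay close together and both AEPS arrays were well above them. The change was 1.83 ± 0.13 (moderated SE, 2 arrays per group) on the log2 scale, or 3.56-fold, with an adjusted p of 0.0207 by limma. In the authors' deposited table the controls were at 9.94, 9.79 and 9.95 and the AEPS samples at 11.63, 11.61 and 11.68. Here too the groups did not overlap, and the gap between them was many times the SD within each group, 0.09 and 0.04. The change in that table was 1.75 ± 0.07 (SE, n = 3 per group; limma adjusted p = 0.000169). The third pair of samples, which no scanner file holds, differed by 1.73. The call was lost without the first control array (adjusted p = 0.125 by limma) and without the second (0.109), with changes of 1.85 and 1.81.

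Of the beta2 integrins, Itgax, the alphaX chain that is widely used as a marker of dendritic cells and is also found on macrophages, was the only one of 4 called in the fit without a block. Its probe lies at chr7:135294052-135294111 (mm9). Scanner levels of Itgax were 0.67 and 0.93 in controls and 2.01 and 2.25 with AEPS. Both AEPS arrays lay above both controls, and each slide gave nearly the same difference, 1.34 and 1.32. The change was 1.33 ± 0.18 (SE), or 2.51-fold, with a limma adjusted p of 0.0394. The authors' deposited table gave 9.26, 9.45 and 9.48 in controls and 10.57, 10.68 and 10.54 with AEPS. No AEPS value reached down to a control value, and the change there was 1.20 ± 0.09 (limma adjusted p = 0.000724). Leaving out any 1 of the 4 scanner arrays ended the call, with adjusted p-values by limma of 0.189 and 0.145 without the first and second control array and 0.0597 and 0.104 without the first and second AEPS array. The other dendritic cell markers checked had a summed level of -1.85 to -1.71 in controls and -0.85 to -0.69 with AEPS, with Xcr1 not above background on any array. Of these markers Zbtb46 was called higher, by 1.26 ± 0.16 (limma adjusted p = 0.0357), and Flt3 was at -0.34 ± 0.17 (limma adjusted p = 0.247). Their part in the Itgax change was not tested.

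Itgb2 encodes the beta2 chain that all 3 of these alpha chains need to reach the cell surface. Its scanner levels were 4.04 and 4.22 in controls and 4.54 and 4.70 with AEPS. Both AEPS arrays were above both controls, by less than for Itgax. The difference was 0.50 on the first slide and 0.48 on the second, a change of 0.49 ± 0.15 (SE), or 1.41-fold, with a limma adjusted p of 0.124 without and 0.0414 with the slide as a block. The authors' deposited table gave 12.51, 12.55 and 12.45 in controls and 13.01, 13.02 and 12.85 with AEPS. The groups were again apart, with a change of 0.46 ± 0.08 (limma adjusted p = 0.0092), and the call in that table held when any 1 of its 6 columns was left out.

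Itgal encodes the alphaL chain of LFA-1. At its brightest probe the scanner levels were 2.02 and 2.37 in controls and 2.39 and 2.59 with AEPS. The second control array was within 0.02 of the first AEPS array on this scale, and the groups barely separated. The change was 0.29 ± 0.19 (SE), with a limma adjusted p of 0.357 without and 0.0951 with the slide as a block. In the authors' deposited table the controls were at 10.57, 10.80 and 10.46 and the AEPS samples at 10.93, 11.01 and 10.87. Values did not overlap there, and the change of 0.33 ± 0.11 had a limma adjusted p of 0.0704, or 0.0248 with the replicate number as a block. Without the second control column it was 0.42, with an adjusted p of 0.0409 by limma.

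Itgam encodes the alphaM chain of Mac-1, the classical macrophage and neutrophil integrin. At its brightest probe the scanner levels were 4.01 and 4.06 in controls and 3.98 and 4.02 with AEPS. The 4 arrays could not be separated by group. The change was -0.04 ± 0.13 (SE), with a 95% interval from -0.40 to 0.32 and a limma adjusted p of 0.866. The authors' deposited table gave 12.49, 12.41 and 12.11 in controls and 12.47, 12.38 and 12.13 with AEPS, and here the samples of the same number lay closer to each other than those of the same group. Relative to the spike-in probes the change was 0.54 (limma adjusted p = 0.142), and it was 0.05 with normexp background correction, so the sign of this small value depends on the scaling. The result also depends on the probe, since the other Itgam probes gave 0.72 and -0.23.

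Of the beta1 integrin and its partners, Itgav and Itga5 were called without a block, Itgb1 with it, and Itga4 in neither. The median of the 4 was 1.02 on the log2 scale and that of the 4 beta2 integrins 0.39, with -0.04 to 1.33 as the range of the beta2 group and 0.11 to 1.70 as the range of the beta1 group. The difference between these groups of genes was not tested, and it depends on the choice of the brightest probe. Other probes gave 0.72 and -0.23 for Itgam and 0.89 and 1.09 for Itgal. In the beta1 group they gave 0.44 for Itgb1, -0.02 for Itga4 and 1.52 for Itgav.

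Itgav encodes the alphaV chain. Its brightest probe had scanner levels of 0.35 and 0.59 in controls and 2.07 and 2.28 with AEPS. Both AEPS arrays were above both controls by more than 1 log2 unit. The change was 1.70 ± 0.17 (SE), or 3.26-fold, with a limma adjusted p of 0.0271. The authors' deposited table gave 8.92, 9.12 and 9.21 in controls and 10.62, 10.71 and 10.70 with AEPS. The groups were far apart there as well, with a change of 1.59 ± 0.10 (limma adjusted p = 0.000395). On the scanner arrays the call was lost without the first control array (change 1.58, limma adjusted p = 0.147), without the second (1.82, 0.112) and without the second AEPS array (1.60, 0.0586).

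Itga5 encodes the alpha5 chain of the fibronectin receptor. Scanner levels were 3.28 and 3.66 in controls and 4.66 and 4.89 with AEPS. The lower AEPS array exceeded the higher control by 1 log2 unit. The change was 1.31 ± 0.20 (SE), or 2.48-fold, with a limma adjusted p of 0.0468, close to the threshold. The authors' deposited table gave 11.80, 12.04 and 12.04 in controls and 13.13, 13.21 and 13.25 with AEPS, a change of 1.24 ± 0.09 (limma adjusted p = 0.000766). All 3 AEPS samples lay above all controls. Leaving out any 1 scanner array ended the call, with limma adjusted p-values of 0.201 and 0.142 without the first and second control array and 0.0682 and 0.122 without the first and second AEPS array.

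Itgb1 encodes the beta1 chain shared by alpha4, alpha5 and many other alpha chains. Its brightest probe had scanner levels of 0.34 and 0.74 in controls and 1.09 and 1.45 with AEPS. The slides differed by about as much within each group as the groups were apart at their nearest values. Within each slide AEPS was higher, by 0.75 on the first and 0.71 on the second. The change was 0.73 ± 0.23 (SE), or 1.66-fold, with a limma adjusted p of 0.124 without and 0.0346 with the slide as a block. In the authors' deposited table the controls were at 8.91, 9.26 and 9.33 and the AEPS samples at 9.65, 9.91 and 9.97. The groups did not overlap, and the change was 0.68 ± 0.15 (limma adjusted p = 0.0208). In that table the adjusted p by limma rose to 0.055 without the second control column, 0.0741 without the second AEPS column and 0.073 without the third.

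Itga4 encodes the alpha4 chain of VLA-4. Scanner levels were 3.46 and 3.50 in controls and 3.54 and 3.63 with AEPS. AEPS arrays were slightly above the controls. The change was 0.11 ± 0.13 (SE), with a 95% interval from -0.26 to 0.47 and a limma adjusted p of 0.608. The authors' deposited table gave 11.97, 11.88 and 11.87 in controls and 12.05, 12.01 and 12.05 with AEPS, a change of 0.13 ± 0.06 (limma adjusted p = 0.185). Over all 9 genes, each by its brightest probe, 8 had every AEPS value above every control value in that table, as did 23.4% of all features.

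**Figure D2:**
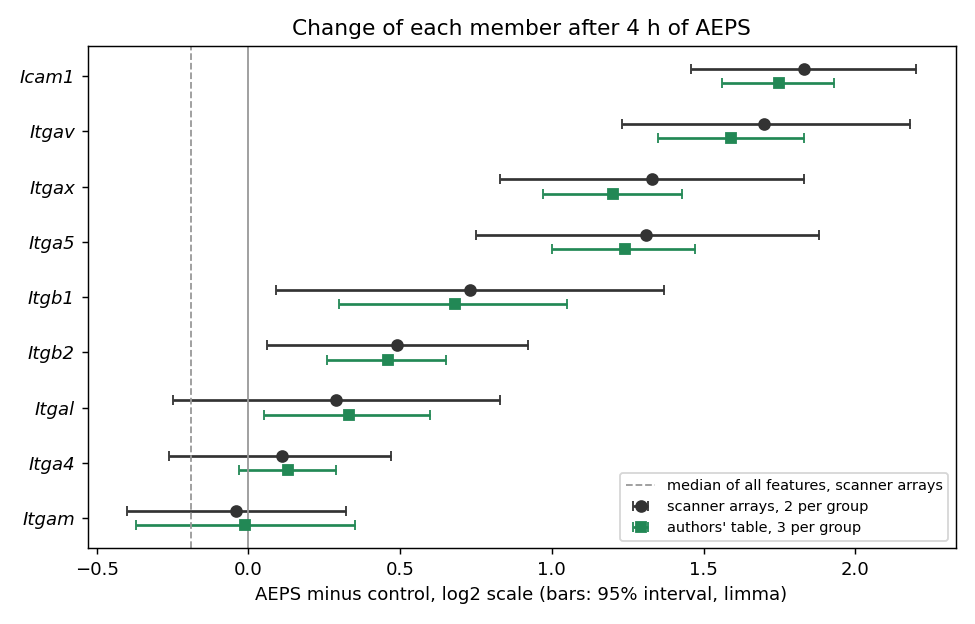
Change of each gene with AEPS (horizontal axis, AEPS minus control on the log2 scale) with its 95% interval from limma, on the scanner arrays (circles, 2 per group) and in the authors' deposited table (squares, 3 per group). Icam1 has the highest values, 1.83 and 1.75, and the intervals of Itgam and Itga4 cross 0 in both sources; the dashed line is the median of all features on the scanner arrays, -0.19.

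The order of the changes was Icam1, Itgav, Itgax, Itga5, Itgb1, Itgb2, Itgal, Itga4 and Itgam in the scanner data. Neighbours in this order had overlapping 95% intervals, for example 1.46 to 2.20 for Icam1 and 1.23 to 2.18 for Itgav. Itga5 came before Itgax in the authors' deposited table, at 1.24 against 1.20. When arrays were scaled to 7 spike-in probes, the median of all features moved from -0.19 to 0.39 and 20.1% of features were called higher. At their brightest probes all 9 members were then above 0, and 7 were called higher, all but Itgam and Itga4. With this scaling the Itgam probe A_55_P1977929 changed by 1.29 (limma adjusted p = 0.0234 over single probes). The Itgam probe A_55_P1977926 changed by 0.34 (limma adjusted p = 0.674). Under quantile normalization the median of all features was -0.08, 6.46% of features were called higher, and the same 4 members were called as in the fit first described.

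For 5 of the genes the array carries more than 1 probe, and for Itgam and Itgal the probes gave different changes. In the fit by probe, which tested 30381 probes, 5.4% were called higher, 15.4% with the slide as a block, and 18.5% in the authors' deposited table. The 3 Itgam probes start at bases 4431, 3410 and 270 of their transcripts. The brightest of them, A_55_P1977934, begins with 10 CA units. Its first 30 bases are shown with these units in capitals, since none of the other member probes holds a CA run of 8 bases or more.

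Itgam A_55_P1977934: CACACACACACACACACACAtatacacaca

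The Itgam probe A_55_P1977929, at chr7:135260275-135260334 (mm9), was at 0.40 and 0.50 in controls and at 1.04 and 1.29 with AEPS on the scanner arrays. Both AEPS arrays were above both controls, unlike at the brightest probe. Its change was 0.72 ± 0.16 (SE), with a limma adjusted p of 0.0662 without and 0.0337 with the slide as a block. In the authors' deposited table this probe gave 8.97, 9.03 and 9.03 in controls and 9.60, 9.76 and 9.75 with AEPS. Here all AEPS samples were higher, by 0.69 ± 0.07 (limma adjusted p = 0.00201). The third Itgam probe, A_55_P1977926, changed by -0.23 ± 0.30 on the scanner arrays (limma adjusted p = 0.624). Its change in the authors' deposited table was -0.12 (limma adjusted p = 0.598). Whether Itgam mRNA changed thus depends on the probe, and the call for the gene rests on the choice of the brightest.

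Among the 3 Itgal probes the brightest gave the smallest change. The probe A_55_P2184601, which begins 96 bases before it in the same transcript (base 3543 against 3639), was at 0.59 and 0.89 in controls and at 1.62 and 1.64 with AEPS. AEPS arrays were clearly higher there, by 0.89 ± 0.16 (SE; limma adjusted p = 0.0519, or 0.0358 with the slide as a block). The same probe in the authors' deposited table gave 9.17, 9.40 and 9.31 in controls and 10.17, 10.10 and 10.02 with AEPS, a change of 0.80 (limma adjusted p = 0.00221). The probe A_55_P2184606 is designed on a cDNA clone and lies 2296 bases upstream on the same chromosome and strand. It changed by 1.09 ± 0.22 (limma adjusted p = 0.059, or 0.0433 with the slide as a block), and by 1.05 in the authors' deposited table (limma adjusted p = 0.00341). It is thus at the other end of the Itgal range from the brightest probe, which changed by 0.29.

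The 2 Itgav probes changed by 1.70 and 1.52, both called (limma adjusted p = 0.0242 and 0.0275 in the fit by probe). The Itgb1 probes changed by 0.73 ± 0.23 and 0.44 ± 0.15, the second with a limma adjusted p of 0.139 without and 0.0493 with the slide as a block. The dimmer Itga4 probe changed by -0.02 ± 0.21 (limma adjusted p = 0.948). Over 9 pairs of probes of 1 gene, the gap between the probes was compared between groups in the authors' deposited table. In 5 pairs the gaps did not overlap between groups, namely 2 of Itgam, 2 of Itgal and the 1 of Itgav. Each of these 5 pairs had an exact two-sided permutation p of 0.1, the smallest that 3 against 3 samples allow. The adjusted p of this test was 0.18 over the 9 pairs, so none could pass. Pairs of 1 gene share probes, and the share of pairs without overlap among all genes was not computed. The count is therefore no result about these genes.

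**Figure D3:**
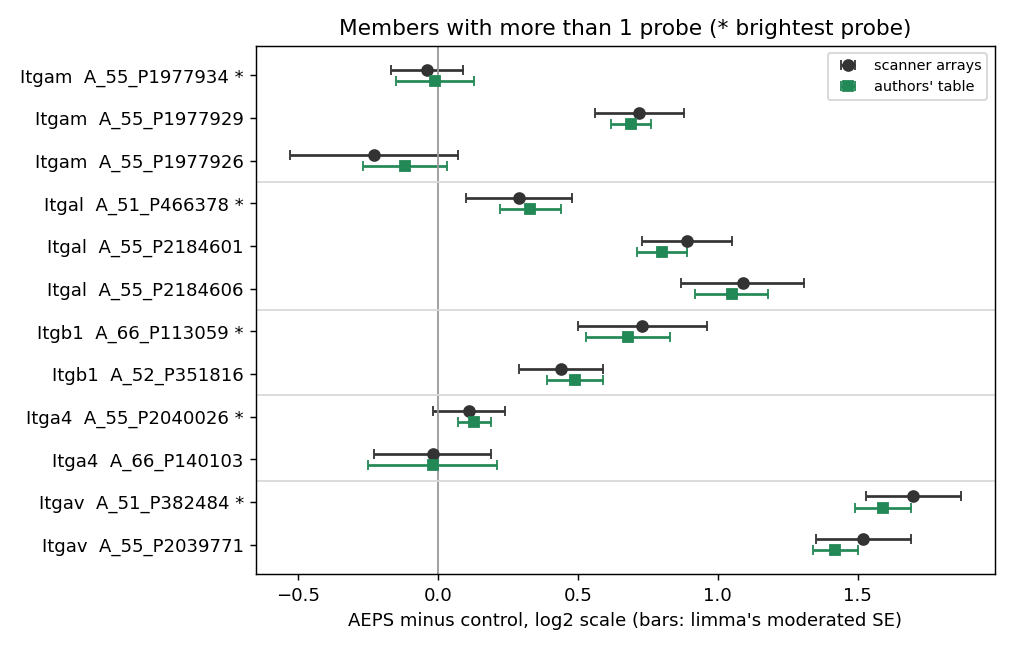
Change of each probe with AEPS (horizontal axis, AEPS minus control on the log2 scale; bars are limma's moderated SE) for the 5 genes with more than 1 probe, on the scanner arrays (circles) and in the authors' deposited table (squares). An asterisk marks the brightest probe, which gave the smallest of 3 changes for Itgal, 0.29, and a change of -0.04 for Itgam, where another probe gave 0.72.

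The probes of Itgal, Itgam and Itgax lie on 1 stretch of mouse chromosome 7, Itgal at chr7:134474711-134477219 and Itgam and Itgax at chr7:135212140-135294111 (mm9, plus strand). At their brightest probes the neighbouring genes Itgam and Itgax changed by -0.04 and 1.33. The other Itgam probes gave 0.72 and -0.23, so the size of this contrast depends on the probe. The other genes are on chromosomes 10 (Itgb2), 8 (Itgb1), 2 (Itga4 and Itgav), 15 (Itga5) and 9 (Icam1).

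Promoter sequence was examined because Icam1 and part of the integrins rose together. RefSeq sequence of assembly GRCm38.p6 was matched for 7 of the 9 genes, and the 250 bases before each start were searched on both strands for GGANNTTCC (a core of NF-kappaB sites), a stricter NF-kappaB form (GGG, 2 bases of any kind, then TTTCC), TTCNNNGAA (a STAT palindrome), TGANTCA (AP-1) and GAGGAA (an ETS core of PU.1 sites). Icam1 held GGANNTTCC as GGAAATTCC at 153 to 145 bases upstream and TTCNNNGAA as TTCCCGGAA at 42 to 34 bases upstream. Of 32851 promoters of the same length, 3.59% held the first motif and 7.02% the second, and no other matched member held either. Itgax held TGAGTCA at 56 to 50 bases upstream, a match to TGANTCA, which 6.75% of promoters hold. The stricter NF-kappaB form was in 1.41% of promoters and in 0 of the 7. GAGGAA, found in 23.3% of promoters, was in those of Itga5, Itgam, Itgav and Itgb1. These matches are letters in a window and no measurement of binding. Shown are the 250 bases of Icam1, chr9:21015690-21015939, and the last 100 bases before the start of Itgax, chr7:128129450-128129549 (GRCm38.p6, both plus strand), with the matches in capitals.

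Icam1: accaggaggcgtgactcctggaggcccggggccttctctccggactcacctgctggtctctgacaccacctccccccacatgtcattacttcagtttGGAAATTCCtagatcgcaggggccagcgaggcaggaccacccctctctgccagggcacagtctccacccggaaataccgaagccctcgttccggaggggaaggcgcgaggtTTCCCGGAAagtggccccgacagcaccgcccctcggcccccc
Itgax: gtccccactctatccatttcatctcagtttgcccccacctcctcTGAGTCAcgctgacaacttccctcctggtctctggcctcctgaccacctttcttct

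The genes whose scanner values were most like each called member were found among 14088 named genes, each centred on its control mean, by the root mean square difference over the 4 arrays in log2 units. For Icam1 they were Samd9l (0.04), Cemip2 (0.055) and Ptpre (0.059). For Itgav they were Vps37a (0.025), Cth (0.027) and Vps13d (0.027). Itgax was closest to Nfe2l2, which encodes the oxidative stress factor NRF2 (0.01), Golgb1 (0.02) and Mak16 (0.028). Itga5 was closest to Nr1d1, which encodes a clock repressor (0.012), Mak16 (0.017) and Rnpc3 (0.031). Icam1 had the most distant nearest gene of the 4 members. With 4 arrays such a likeness is mainly one of the size of the change.

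The partners and ligands of these integrins were taken from 4 lists of adhesion genes. Of 18 other integrin chains, 10 were too dim to test, and the 8 tested had a median change of -0.45. In the fit without a block 0 of these 8 were called, where 4.18% of all features were called higher and 2.94% lower. The same fit with the slide as a block called 1 higher, which was Itgb3, and 3 lower, beside 13% and 16.8% of all features. Among the 3 lower was Itga3, well above background on both control arrays but on only 1 AEPS array. It entered the test through the control arrays alone, which fixes its direction, so its call is no support for a fall. Itgb5, a beta chain that pairs with alphaV, was at 4.32 and 4.34 in controls and at 3.59 and 3.68 with AEPS. Both AEPS arrays were lower, by -0.69 ± 0.13 (limma adjusted p = 0.0614, or 0.0354 with the slide as a block), whereas relative to the spike-in probes the change was -0.12. Itgb3, the other well-known partner of alphaV, is named here after its values were seen. Neither control array had it well above background. It was at -4.49 and -4.66 with AEPS and changed by -0.19 with normexp background correction, so the size of its change cannot be given. It entered the test through the AEPS arrays alone, which fixes its direction, so its call with the block is no support for a rise.

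Of 25 ligands and counter-receptors, 16 were tested, with a median change of 0.37. In the fit without a block 4 were called higher and 0 lower, beside 4.18% and 2.94% of all features. The slide block gave 7 higher and 3 lower, beside 13% and 16.8% of all features. Thbs1 and Tnc, 2 of the 4, passed the filter on dim probes only through the AEPS arrays, so their direction was fixed and their calls are no support for a rise. Vcam1 and Fn1, ligands of alpha4 and alpha5, were too dim to test. C3, whose fragment iC3b is bound by alphaM and alphaX, changed by 1.13 ± 0.15 (SE; limma adjusted p = 0.0379). F11r, which encodes the LFA-1 ligand JAM-A, changed by 1.12 ± 0.14 (limma adjusted p = 0.037). Tnc, which encodes the matrix protein tenascin-C, was above background on 1 of the 2 control arrays, and its change was 2.48 on the log2 scale but 0.74 with normexp background correction. Thbs1, which encodes thrombospondin-1, was not well above background in either control, so the size of its change cannot be given. With normexp background correction Thbs1 changed by 0.18. Mfge8, which encodes an alphaV ligand that bridges to apoptotic cells, was the brightest that did not pass, at -0.64 ± 0.20 (limma adjusted p = 0.125, or 0.0357 with the slide as a block). Its change relative to the spike-in probes was -0.06.

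Of 40 activators and adaptors that link integrins to the cytoskeleton and to signalling, 36 were tested, with a median change of 0.10. In the fit without a block 4 were called higher and 0 lower, beside 4.18% and 2.94% of all features. The slide block raised these counts to 13 higher and 3 lower, beside the shares of all features given above for that fit. The tyrosine kinase Src changed by 1.34 ± 0.14 (SE; limma adjusted p = 0.0273), though by 0.42 with normexp background correction (limma adjusted p = 0.125). Rap1b, a small GTPase that activates integrins, changed by 1.01 ± 0.13 (limma adjusted p = 0.0364). Its effector RIAM, encoded by Apbb1ip, changed by 0.99 ± 0.16 (limma adjusted p = 0.0482) and Lims1, which encodes PINCH-1, by 0.91 ± 0.13 (limma adjusted p = 0.0419). Flna, which encodes the actin cross-linker filamin A, was the brightest that did not pass, at 0.12 ± 0.16.

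Of 28 selectins and other leukocyte adhesion genes, 22 were tested, with a median change of 0.05. In the fit without a block 2 were called higher and 1 lower, beside 4.18% and 2.94% of all features. The slide block gave 5 higher and 2 lower, beside 13% and 16.8% of all features. Sdc4, which encodes a proteoglycan that acts with alpha5beta1 on fibronectin, changed by 2.16 ± 0.13 (SE; limma adjusted p = 0.0147). Plaur, which encodes the urokinase receptor, changed by 2.07 ± 0.15 (limma adjusted p = 0.021). Cd151, a tetraspanin known to associate with integrins, changed by -1.11 ± 0.15 (limma adjusted p = 0.0377), and by -0.53 relative to the spike-in probes (limma adjusted p = 0.103). Ninj1 was the brightest that did not pass, at -0.12 ± 0.19. Besides Thbs1 and Tnc, each of the 9 list genes called here lost its call when either control array was left out (limma adjusted p from 0.0867 to 0.233). All of these but Sdc4 and Plaur also lost it when either AEPS array was left out (limma adjusted p from 0.0566 to 0.166).

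**Figure D4:**
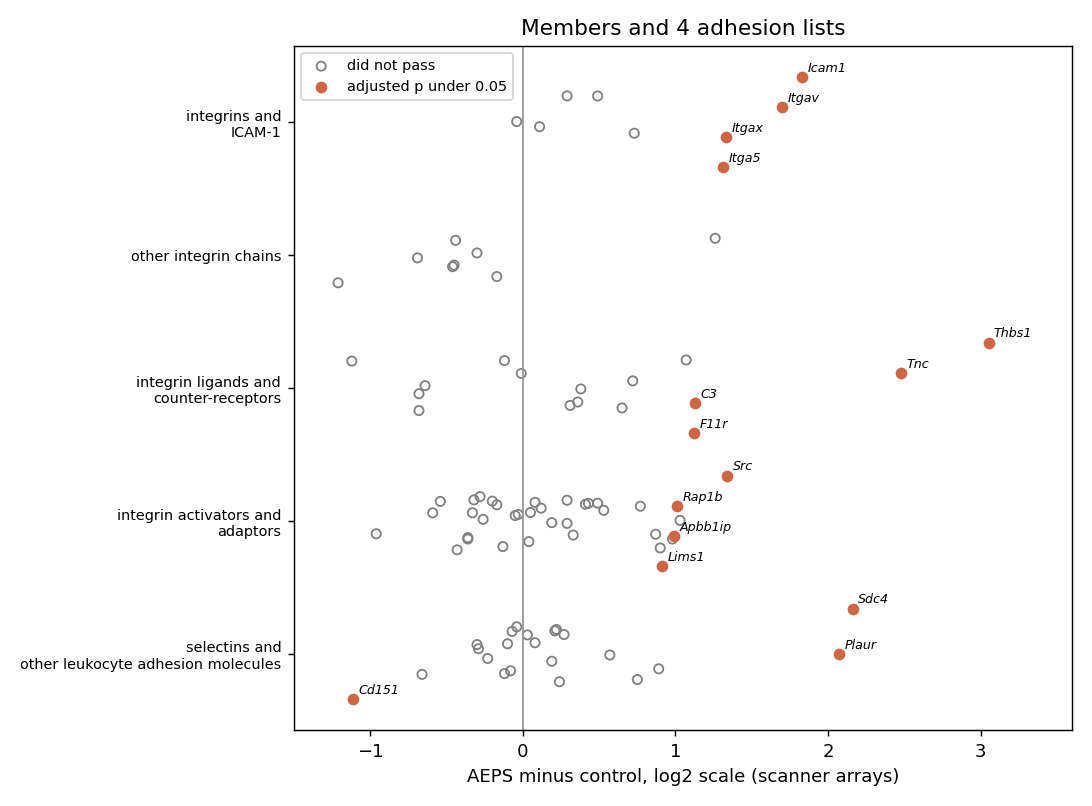
Change with AEPS on the scanner arrays (horizontal axis, log2 scale) of the 9 members and of the tested genes in 4 adhesion lists, with genes at an adjusted p under 0.05 filled and named. Height within a row has no meaning. Filled are 4 of 9 members and 0 of 8 other integrin chains, where 4.18% of all features were called higher and 2.94% lower. Members and lists were chosen with earlier results of these data known, so their counts are no test between them. Thbs1 and Tnc are plotted at fitted values although they were above background on 0 and 1 of the 2 control arrays.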

How the data were processed

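RNA of 6 RAW264.7 samples was measured on 1-colour Agilent arrays after Cy3 labelling, per the labels' protocols. The deposited scanner files hold spot intensity values from Agilent Feature Extraction 10.7.1.1, background-subtracted within each array but not normalized between arrays, per the file headers. The authors' deposited value table is close to log2 of the processed signal, with columns that share a median of 4.71 and sorted values that differ by at most 0.01. No source used here gives its log offset. Table column 1 of each group ranked probes as the file of replicate 1 did, and column 2 as the file of replicate 3 did (Spearman 0.999992).

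Control spots and outlier spots were left out, spots of 1 probe averaged, and log2 values set relative to each array's 75th percentile, which was 286.7 to 574.7 in signal units. A probe was tested if all arrays of either group had it well above background. Of 55681 probes, 26582 were named through RefSeq accessions and 2602 by scanner symbol. Gene symbols of the members came from the replicate 3 files, since the others carry accessions there. Probe coordinates are those of the scanner files (mm9). Groups were compared with limma 3.58.1 in R 4.3.3 without covariates, at an adjusted p of 0.05. The authors' table was fitted the same way over the same features. The scripts were tested on simulated data. With 200 changed features the scanner fit without a block found 0% of 2-fold changes, and with 2000 it found 44.2%. The fit of the authors' table found 48.0% and 68.7%. A gene that did not pass may therefore still have changed.

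Each sample's deviation from its group's mean was correlated with that of each sample of the other group. In the table this gave 0.58, 0.39 and 0.418 for samples of the same number, against -0.493 to 0.229 for other pairs. For the scanner arrays it gave 0.623 on a shared slide and -0.623 otherwise, a mirror image that 2 arrays per group force. The numbers were therefore taken to pair the table columns, and the slides to pair the arrays. This choice rests on the same values that the fits with a block use. Results with the block are given for the members whose call it changes and as counts for the lists.

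The members and lists were chosen with earlier results of these data known. The rule for named genes took all 9 members, from each of 4 lists up to 5 called genes with the largest change and the brightest that did not pass, and for each called member the 3 most similar genes. A gene of these lists is not reported here and was left out of the lists' counts. In all, 19 alternative settings were run.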

Additional observations from a re-analysis of the deposited data

How the results depend on the processing

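Under 19 alternatives every called member (Icam1, Itgav, Itgax, Itga5) kept a positive change, from 1.70 to 2.40 for Icam1, 1.51 to 2.28 for Itgav, 1.13 to 1.90 for Itgax and 1.12 to 1.88 for Itga5, and the call held in 16, 15, 14 and 14 of them. The 1850 features called became 4612 with normexp, 2926 with quantile normalization, 5471 with spike-in scaling, and 8688 in the authors' deposited table. With the slide as replicate block they were 7733, and 12942 in the authors' table with the replicate number as block. Without a filter on dim probes limma called 0 of 48224 features, while 7363 had an unadjusted p under 0.05. Leaving out 1 scanner array gave 7 to 809 features, and 1 table column 5617 to 7468 (7468, 5677 and 7139 without control column 1, 2 and 3, and 7406, 5617 and 5807 without AEPS column 1, 2 and 3). The members called higher, 4, became 7 with spike-in scaling and 7 in the table with the block, 0 without the filter (4 at an unadjusted p under 0.05), and 0 to 2 without 1 scanner array. The share of called features that were higher was 58.8%, but 95.3% with spike-in scaling, 41.4% with normexp and 43.6% with the slide block. Members called lower were 0 under every alternative run. Besides the calls named in the report, the block changed no call of a member.

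Itgam was at 0.05 with normexp, 0.54 with spike-in scaling, 0.15 as the mean of its tested probes, and 0.07, 0.03 and 0.09 in the table without control column 1, control column 2 and AEPS column 3. Ninj1 was at 0.46 with spike-in scaling, -0.30 without the first control array, 0.06 without the second and 0.02 in the table without control column 2, and Itgb3 at -0.19 with normexp. The cause was not tested. With the mean of their probes C3 and Lims1 lost their calls (0.80, adjusted p = 0.0645; 0.62, adjusted p = 0.0696; limma).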
